A study of Arabidopsis thaliana with 24 samples.

Results

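The data described here are the wild-type samples of experiment “b”, in which the transcripts of dissected *Arabidopsis* hypocotyls were measured after 2 h on the synthetic auxin picloram. They comprise 6 of the 24 samples of the series, chosen by their labels: 3 Col-0 wild-type replicates on 5 µM picloram and 3 on the DMSO solvent control. All seedlings were 5 days old, grew in long days and were transferred to the treatment at ZT2, the second hour of light. Each replicate pooled roughly 700 hypocotyls of many seedlings, cut within 30 min of the end of the treatment, so the values are those of a mixed organ and not of 1 cell type. The RNA was not amplified and was hybridized with 1 dye (Cy3) to a NimbleGen 12-plex chip. The same chip carried *afb5-5*, an insertion mutant (SALK_110643) of the auxin receptor gene *AFB5*, with 3 replicates on picloram and 3 on the control under the same conditions. Experiment “a” added wild-type hypocotyls after 30 min and 2 h on another chip, with 3 picloram and 3 control samples at each time.

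Auxin is perceived by the F-box proteins of the TIR1/AFB family, which tag the Aux/IAA repressors for destruction when the hormone is bound. Auxin response factors (ARF) held by these repressors are then released and switch on early targets, among them the *Aux/IAA* genes themselves, the *SAUR* genes and the *GH3* genes, whose enzymes join auxin to amino acids and so inactivate it. In hypocotyls auxin promotes cell elongation, which involves acidification and loosening of the cell wall. Picloram is perceived mainly through AFB5.

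Each value is the intensity of 1 transcript on 1 array, with splice forms kept apart, for 37118 transcripts of 32627 loci. The medians of the 6 wild-type arrays lay between 512 and 527. Picloram replicates 1 and 2 departed in opposite directions in a group of 6227 transcripts from loci without a protein-coding gene in RefSeq, where 248 transcripts were more than 1 log2 unit above their group mean on replicate 1 and 210 were more than 1 below it on replicate 2. On picloram replicate 3 these counts were 0 and 1, and on the wild-type control arrays they were at most 11 and 39. Of the *afb5-5* arrays, which enter the same fit, picloram replicate 2 had 573 such transcripts above its group mean and picloram replicate 1 had 277 below. The other *afb5-5* arrays had at most 5 above and 12 below. Of the transcripts called below, 14 belong to this group, and what part these arrays had in their calls was not tested. Of 37 marker loci for single tissues and cell types, 0 were called by the test described next. Over all loci 1.77% had an induced form and 0.49% a repressed one, so a count of 0 among so few loci says little. Markers of shoot epidermis, photosynthetic tissue, xylem and phloem, tissues that a hypocotyl holds, had their median level at percentiles 92.1, 99.6, 80.8 and 45.9 of all transcripts. Those of root tip, guard cell lineage, seed storage, shoot meristem and flower and pollen lay at 43.9, 33.7, 31.7, 17.5 and 6.76. Root hair markers, which a clean dissection should lack, lay at percentile 40.3, with mean log2 levels between 8.26 and 8.58 on picloram arrays and between 8.32 and 9.13 on control arrays. Phloem markers lay close to them, so these levels do not separate the tissues held from those that should be lacking. The *AFB5* transcript (AT5G49980) read 6014, 9129 and 6420 on the picloram arrays, against 10633, 12101 and 10738 on the control arrays, and its log2 change of -0.66 did not pass the test (SE 0.20, adjusted p = 0.152 by limma). In *afb5-5* the same transcript read 9168, 5768 and 7635 with picloram and 9686, 8524 and 8017 in the control, so the mutant labels cannot be checked on its level, and where its probes lie relative to the mutation was not tested.

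In pooled organs, a lower share of cells that express a gene and less RNA per cell cannot be told apart, and the same holds for higher values. Picloram changed 804 of the 37118 transcripts (2.17%) in wild type at an adjusted p under 0.05 by limma. Of these, 634 (1.71%) were induced and 170 (0.458%) repressed. The median log2 change was 1.09 among the induced and -0.94 among the repressed transcripts, that is 2.13-fold and 1.92-fold, while the median over all transcripts was -0.03. A log2 change beyond 1 in size was reached by 366 of the induced and 68 of the repressed transcripts, and one beyond 2 by 51 and 1. Called transcripts were well expressed, with median levels at percentiles 68.4 and 69.5, and 34 of the induced and 4 of the repressed ones were among the dimmest 25% of transcripts.

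**Figure D1:**
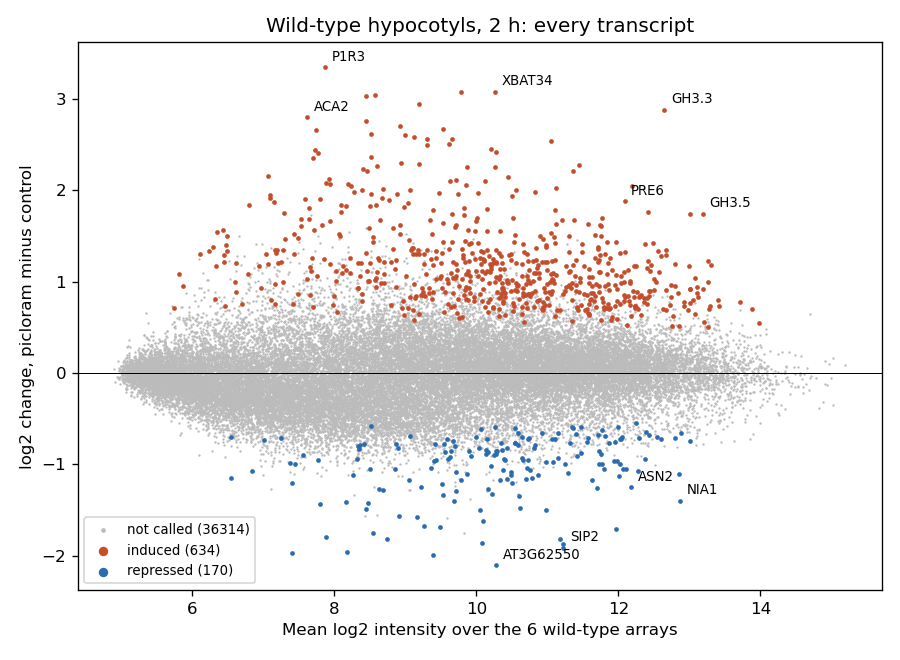
The log2 change (picloram minus control, vertical axis) of each of the 37118 transcripts is plotted against its mean log2 intensity over the 6 wild-type arrays (horizontal axis). Induced transcripts (634) outnumber repressed ones (170), and *GH3.3* and *GH3.5* are examples of strongly changed transcripts at a high level.

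On every called transcript the 3 picloram values did not overlap the 3 control values. Such separation is common by itself, since picloram arrays were all above control arrays in 10.8% of all transcripts and all below in 10.2%. The number of calls depended on single arrays. Leaving out control replicate 1 or 3 gave 535 or 397 calls, and leaving out picloram replicate 2 or 3 gave 436 or 338. A stricter group of 307 transcripts (0.827%) was therefore set apart, which were called in the complete fit and again with each wild-type array left out in turn. They comprise 262 induced transcripts of 234 loci and 45 repressed transcripts of 40 loci, and they are called firm below. Same-numbered wild-type replicates deviated together, and with the replicate number as a block 1295 of the 37118 transcripts were called, 853 induced and 442 repressed. In a blocked fit to the 6 wild-type arrays alone 5961 of the 37118 were called. List counts from the blocked fits, given below, are to be read against these totals and not against the 2.17% of the main fit.

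The most strongly induced firm locus was *P1R3* (AT3G29370). It read 636, 788 and 827 on the picloram arrays, against 68.3, 78.7 and 73.3 on the control arrays, a 10.2-fold difference (log2 change 3.35, SE 0.19, adjusted p = 1.04e-05 by limma). *XBAT34* (AT4G14365), which encodes a RING-type ubiquitin ligase with ankyrin repeats, followed with 3784, 3269 and 3701 against 607, 307 and 408. The spread of its control arrays was the widest of these first loci, yet the groups lay far apart (log2 change 3.08, SE 0.21). *GA2OX8* (AT4G21200), an enzyme that inactivates gibberellin precursors, read 2926, 2331 and 2491 with picloram and 340, 329 and 253 without it. Its 3 splice forms rose alike, by 3.08, 2.95 and 3.03 on the log2 scale. *MDHAR* (AT3G09940), a reductase that regenerates ascorbate, read 1056, 1135 and 1088 with picloram and 105, 144 and 153 in the control. *GH3.3* (AT2G23170) was induced at a far higher level, at 14411, 20159 and 18132 against 1796, 3001 and 2446 (7.36-fold).

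The other 10 of the 15 loci with the largest firm increase changed by 2.50 to 2.80 on the log2 scale. *ACA2* (AT2G28210), an alpha carbonic anhydrase, rose by 2.80, and AT2G18690 by 2.76. *PBP1* (AT5G54490), a calcium-binding partner of the PINOID kinase that regulates auxin efflux carriers, rose by 2.71 (SE 0.18). *GSTF6*, *PGIP1* and *CRK11* encode a glutathione transferase, an inhibitor of fungal pectin-degrading enzymes and a cysteine-rich receptor kinase, and they rose by 2.68, 2.58 and 2.50. *CRK11* was the tightest of them, at 1775, 1811 and 2029 with picloram and 316, 337 and 336 without. AT4G30180 changed by 2.66, *GH3.1* by 2.62, the ethylene synthesis gene *ACS8* by 2.56 and the cell wall gene *XTH18* by 2.56.

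**Figure D2:**
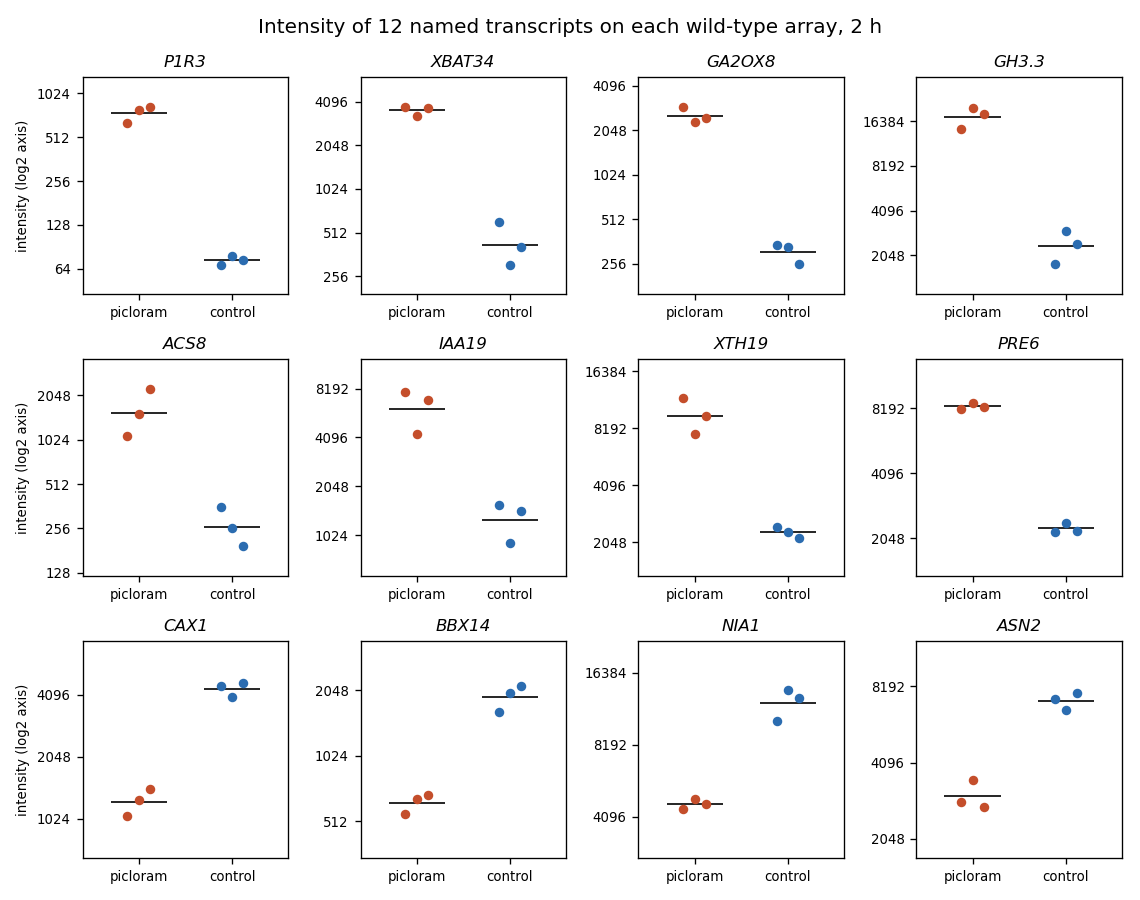
Intensity of 12 named transcripts on each of the 3 picloram and the 3 control arrays of wild type, on a log2 axis scaled for each panel, with points for arrays and bars for the mean of the log2 values. Picloram arrays lie above control arrays in the first 8 panels and below them in *CAX1*, *BBX14*, *NIA1* and *ASN2*.

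The early auxin families were induced in part. To read their counts, 1.77% of all loci had an induced form and 0.49% a repressed one. For the counts of loci higher with picloram, here and below, 14705 of all 32627 loci were higher. Of 29 *Aux/IAA* genes on the chip 9 were induced and 0 repressed, 8 of them firmly, and the median log2 change of the list was 0.42, against -0.04 over all loci. *IAA19* read 7777, 4315 and 6994 with picloram and 1567, 911 and 1438 in the control. Replicate 2 was the lowest in both groups, and within each number the change was similar (log2 change 2.28, SE 0.29, adjusted p = 0.00164 by limma). *IAA6* and *IAA5* were much dimmer and changed as much, by 2.27 and 2.22, with *IAA5* at 547, 873 and 905 against 187, 151 and 153. *IAA2* rose by 1.69 and *IAA1* by 1.62, and *IAA7*, *IAA29* and *IAA17* by 1.21, 0.99 and 0.96. *IAA14* (log2 change 0.90) was called in the complete fit and in only 1 of the 6 fits with an array left out.

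All 4 induced *GH3* genes of 10 were firm, and 0 were repressed. *GH3.5* was the brightest, at 17592, 15732 and 18177 with picloram and 4151, 5833 and 5504 in the control (log2 change 1.75, SE 0.22). *GH3.2* read 1605, 1759 and 1577 against 372, 645 and 512. *GH3.1* was near the dim end in the control, at 135, 170 and 141, and read 748, 851 and 1176 with picloram. The list as a whole had a median change of 0.36, and 6 of its 10 loci were higher with picloram.

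Of 79 loci with a *SAUR* symbol or synonym in RefSeq, 10 were induced and 2 repressed, and 48 were higher with picloram. Matching by name can bring in loci outside the family, as AT5G01830 and AT5G18030 both carry the name SAUR21, and membership was not checked. The median change of the list was 0.10. *SAUR35* had the largest increase, at 961, 1251 and 1011 against 296, 263 and 244 (log2 change 2.00, SE 0.20, adjusted p = 4.32e-04 by limma). *SAUR10*, *SAUR68* (AT1G29490) and *SAUR52* rose firmly by 1.92, 1.90 and 1.86, all from control levels between 57.6 and 283. *SAUR15*, a brighter member, rose by 0.89. *SAUR9*, *SAUR76*, *SAUR34*, *SAUR61* and *SAUR28* were called without being firm. *SAUR59* fell firmly by 1.17 on the log2 scale, at 642, 1048 and 937 with picloram and 1684, 2065 and 2078 without, and *SAUR33* fell by 0.96. The number of *SAUR* calls was 7 without control replicate 3 or without picloram replicate 3. Members of this family, which encodes small proteins that promote cell expansion, are similar in sequence, and how far their probes tell them apart was not tested.

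The auxin receptors (6 loci), the *ARF* genes (22), the genes of auxin transport (18) and synthesis (14) and the *LBD* genes (40) gave 0 calls. With the replicate number as a block, 3 transport genes, 1 *ARF* gene (*ARF19*) and 1 synthesis gene (*YUC1*) passed, and in the blocked fit to the 6 wild-type arrays 5, 3 and 5 did, with 8 *LBD* genes and 1 receptor. These fits called 1295 and 5961 of the 37118 transcripts, respectively. Without a block the nearest were *PIN3*, an auxin efflux carrier, at 7373, 7405 and 8476 against 4315, 5379 and 5000 (log2 change 0.67, adjusted p = 0.0540 by limma) and *PIN2*, another efflux carrier that is also one of the root tip markers, at 633, 722 and 794 against 291, 454 and 368 (0.97, adjusted p = 0.0671). *LBD16*, which acts in lateral root formation, changed by 1.03 (adjusted p = 0.0840). In the synthesis list 2 of 14 loci were higher with picloram and the median was -0.22, with the largest difference in *YUC1*, an enzyme of the last step to auxin (log2 change -0.98, adjusted p = 0.265). Among the *HD-ZIP II* genes, which respond to shade and auxin, *HAT1* and *HAT2* were called (1.02 and 0.87) but not firmly, and the count was 0 without picloram replicate 3 and 1 without control replicate 1 or 3 or picloram replicate 2.

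Small helix-loop-helix proteins of the PRE type promote elongation by binding inhibitory partners such as IBH1 and PAR1. This list had the highest median change of all the lists, 1.28. Of its 10 loci, 5 were induced and 0 repressed. *PRE6* (AT1G26945), also known as KIDARI, was bright and very even, at 8147, 8613 and 8314 with picloram and 2180, 2416 and 2218 in the control (log2 change 1.88, SE 0.13, adjusted p = 2.51e-05 by limma). *PRE1* read 286, 583 and 504 against 130, 145 and 141, with replicate 1 the lowest of the treated arrays. Of the genes for inhibitory members, *PAR2* and *IBH1* rose, while *PAR1* and *HFR1*, with changes of 0.47 and -0.23, did not pass. *PAR2* read 1126, 1554 and 1238 against 265, 296 and 235 (log2 change 2.29), and *IBH1* read 1519, 1960 and 1430 against 638, 820 and 681 (1.19). *PRE5* was called at 1.55 but lost its call with 1 of the 6 arrays left out. The *PIF* genes, whose products promote elongation in the dark and in shade, gave 0 calls among 7 loci. Their changes ran from -0.14 to 0.92, with a median of 0.00, and 1 was called in the blocked fit to the 6 wild-type arrays.

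Of 5 further growth regulators, 3 were induced. *ARGOS*, which enlarges organs, read 2840, 3521 and 3282 with picloram and 1089, 1337 and 1007 without (log2 change 1.49, SE 0.15). Its relative *ARL* rose by 0.96. *LNG1*, a promoter of lengthwise cell growth, was called at 0.73 but in 0 of the fits with an array left out.

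Genes of the cell wall came next. Xyloglucan endotransglucosylase/hydrolases (*XTH*) cut and rejoin the xyloglucan chains that tie cellulose fibrils together. Of 33 such genes, 11 were induced and 2 repressed, though the median of the list was only 0.16. *XTH19* read 11840, 7656 and 9537 with picloram and 2453, 2301 and 2160 in the control (log2 change 2.05, SE 0.18, adjusted p = 1.97e-04 by limma). *XTH18*, its direct neighbour in the RefSeq order, read 2118, 1838 and 1917 against 241, 368 and 411. *XTH16* and *XTH23* rose firmly by 2.14 and 1.63. *XTH8*, *XTH33*, *XTH22* and *XTH15* rose firmly by 1.56, 1.38, 1.33 and 0.88. *XTH17*, *XTH30* and *XTH9* were called without being firm. The 2 repressed members changed less than the most induced ones. *XTH31* read 1293, 3529 and 2411 with picloram and 6047, 8168 and 7668 in the control (log2 change -1.70, adjusted p = 0.0106 by limma), and *XTH32* changed by -0.99. Neither was firm. Without control replicate 3 the list had 8 calls.

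Expansins loosen walls without cutting them. Of 37 loci 4 were induced and 0 repressed, and all 3 expansin-like A genes on the list were among them. *EXLA1* read 5040, 3422 and 3531 against 1482, 1070 and 1289 (log2 change 1.63), while *EXLA2* and *EXLA3* rose by 1.60 and 1.56. *EXLA1* and *EXLA3* lie 1 gene apart. *EXPA1* was called at 0.52, a small change at a high level, and in 0 of the fits with an array left out. The median of the expansin list was 0.09.

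Arabinogalactan proteins, heavily glycosylated wall proteins, had 8 of 31 loci induced and 0 repressed. *AGP17* read 5330, 6073 and 6015 with picloram and 2784, 1727 and 1796 in the control (log2 change 1.50), and *AGP9* rose by 1.18. The other 6 called members, with changes of 0.73 to 0.99, were not firm. The list kept 3 calls without control replicate 2 or without picloram replicate 2, and 2 without control replicate 3, picloram replicate 1 or picloram replicate 3. Of 15 loci with a pectin methylesterase (*PME*) symbol or synonym in RefSeq, whose membership of the family was not checked, 3 were induced. *ATPME41* (AT4G02330) read 1746, 1872 and 2078 against 344, 490 and 556 (log2 change 2.06, SE 0.28), and *PME44* and *PME12* were called at 0.78 and 0.85. Only 1 of these 3 calls was left without picloram replicate 2 or 3. The lists of primary-wall cellulose synthesis (9 loci), xylem and secondary wall (12), plasma-membrane proton pumps (11) and aquaporins (23) gave 0 calls. In the blocked fit to the 6 wild-type arrays, which called 5961 of the 37118 transcripts, 4 aquaporins and 1 xylem gene passed, and 0 genes of the other lists named here.

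Phosphatases of the PP2C clade D keep the proton pump of the plasma membrane in its inactive state. Of 9 such genes 3 were induced. AT5G66080 read 3985, 2078 and 3290 with picloram and 1074, 580 and 678 in the control (log2 change 2.00, SE 0.27, adjusted p = 0.00208 by limma). AT5G02760 read 1350, 2400 and 1845 against 678, 635 and 433 (1.67). AT3G17090 was called at 0.56, in 0 of the fits with an array left out.

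**Figure D3:**
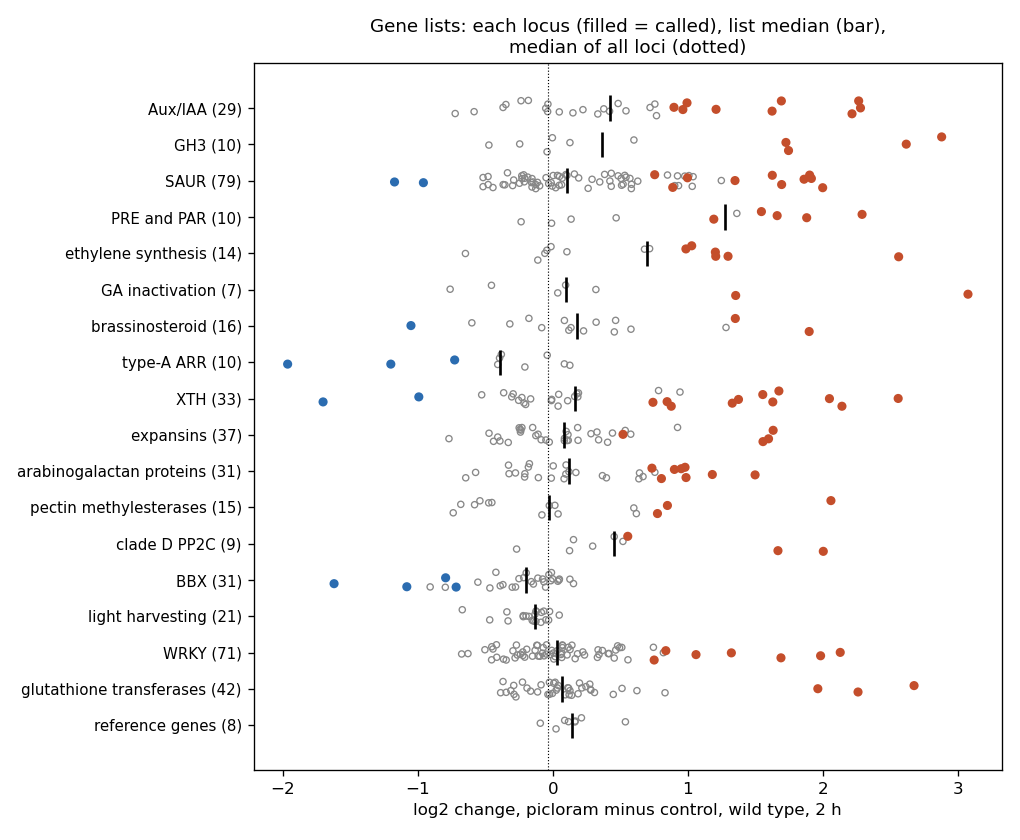
The log2 change (picloram minus control) of each locus in 18 gene lists, with the number of loci on the chip in brackets. Filled points are called loci, open points are not called, bars are list medians and the dotted line is the median of all loci, -0.04. The *PRE* and *PAR* list has the median farthest to the right, 1.28, and the *BBX* and type-A *ARR* lists hold only repressed calls.

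The replicate block left these counts nearly as they were in the 12-array fit, where *SAUR* had 15 called loci, *Aux/IAA* 10 and *XTH* 14, while *HD-ZIP II* fell to 1 and the heat shock proteins reached 2. In the blocked fit to the 6 wild-type arrays the called loci numbered 32 for *SAUR*, 17 for *Aux/IAA*, 18 for *WRKY*, 14 for arabinogalactan proteins, 10 for pectin methylesterases, 9 for expansins, 8 for *BBX* and 7 for heat shock proteins. Clade D PP2C, brassinosteroid and glutathione transferase genes had 6 each, *HD-ZIP II* and trehalose phosphate phosphatase genes 5 each, gibberellin signalling 4, and the clock and the abscisic acid receptors 3 each. That fit called 5961 of the 37118 transcripts, so these lists are to be read against a higher background.

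Genes of other hormones followed. Ethylene is made by ACC synthases (*ACS*) and ACC oxidases (*ACO*), and 6 of 14 such genes were induced and 0 repressed, with a median of 0.70. *ACS8* read 1077, 1516 and 2238 with picloram and 355, 257 and 194 in the control, so that the treated arrays were spread more widely than those of most named genes (log2 change 2.56, SE 0.35, adjusted p = 0.00230 by limma). *ACS11* and *ACS2* rose firmly by 1.30 and 1.20 at low levels, *ACS11* at 97.9, 116 and 112 against 50.8, 43.4 and 38.8. *ACO4* rose by 1.03. *ACS4* and *ACS6* were called at 1.21 and 0.99, not firmly.

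For gibberellin, the strong increase of *GA2OX8* stood alone as a firm change. *GA2OX6*, another inactivating enzyme, was called at 1.35 and *GA3OX1*, which makes the active hormone, at 0.82, at 4387, 4783 and 4805 against 2548, 2773 and 2596. The DELLA genes *RGL1* and *GAI*, whose proteins repress growth until gibberellin removes them, were called at 1.83 and 1.11. None of these 4 was firm. Gibberellin signalling had 3 calls without picloram replicate 1, 2 without control replicate 2 and 0 with any other array left out.

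In the brassinosteroid list *BZR1*, a transcription factor of the pathway, rose firmly by 1.90 in its first form, at 690, 929 and 925 against 160, 295 and 243. Its second form changed by 0.12 (adjusted p = 0.859). *BR6OX1*, an oxidase late in brassinosteroid synthesis, rose by 1.35 at a low level, and *ROT3*, a hydroxylase of the same pathway, was called at -1.05 but not firmly.

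Type-A response regulators (*ARR*) are early targets of cytokinin and dampen its signal. Here 3 of 10 were repressed and 0 induced, with a median of -0.39. *ARR6* read 123, 192 and 135 with picloram and 412, 866 and 532 in the control (log2 change -1.96, adjusted p = 0.0102 by limma). *ARR4* and *ARR5* changed by -1.20 and -0.73. None of the 3 was firm, and the list had 0 calls without picloram replicate 3 and 1 without control replicate 2 or 3 or picloram replicate 1. *CKX7* and *CKX5*, which break cytokinin down, were called at 0.82 and 0.81 but not firmly. Among the jasmonate repressors *JAZ3* rose, by 1.30 in form 1 and firmly by 1.14 in form 2, and *JAZ1* was called at 1.24. The abscisic acid receptor gene *PYL6* was called at -0.84, with the call lost whichever array was left out, and clade A PP2C genes (9 loci) gave 0 calls, or 1 with the replicate block and 4 with the block and the 6 wild-type arrays alone.

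Genes known from defence and stress were a further group. Of 71 *WRKY* transcription factor genes 7 were induced and 0 repressed, against a list median of 0.03. *WRKY30* rose by 2.13, and *WRKY40* read 573, 669 and 607 with picloram and 186, 139 and 145 in the control (log2 change 1.98, SE 0.16, adjusted p = 1.23e-04 by limma). *WRKY53* and *WRKY25* rose firmly by 1.69 and 1.32. *WRKY15*, *WRKY33* and *WRKY46* were called at 1.06, 0.84 and 0.75, not firmly, and 4 of the 7 calls were left without picloram replicate 3. Of 42 glutathione transferase genes 3 were induced, all firmly. *GSTF6* read 1620, 2358 and 1709 against 194, 453 and 284, and *GSTF7* read 2000, 2186 and 1950 against 358, 619 and 349. These are adjacent genes of similar sequence, and whether their probes measure both was not tested. *GSTU12* (AT1G69920) rose by 1.96. The list of ethylene response factors (*ERF*) holds 27 loci with such a symbol or synonym in RefSeq, and not every ERF-type gene. It gave 0 calls, or 2 with the replicate block and 9 with the block and the 6 wild-type arrays alone. *ESE3*, an ERF-type gene described below, is not on this list and was induced firmly. Of 30 heat shock protein genes only *Hsp70-2* was called, at 0.85 and not firmly.

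The firm induced loci with the highest levels were, besides *GH3.5*, *LUP1*, *CSLC04*, AT2G35880, *DRT100* and *ESE3*. *LUP1*, a lupeol synthase, read 16825, 17568 and 18632 with picloram and 9130, 11445 and 10506 in the control (log2 change 0.78). *CSLC04*, which builds the glucan backbone of xyloglucan, read 12484, 12820 and 13531 against 6720, 6877 and 6926 (0.92). *ESE3*, an ERF-type transcription factor, rose by 1.74, at 13494, 16147 and 15940 against 4813, 5380 and 3581.

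The repressed side was smaller in number and in size. The largest firm decrease was that of AT3G62550, at 480, 655 and 691 with picloram and 2383, 2681 and 2700 in the control (log2 change -2.10, SE 0.20, adjusted p = 2.89e-04 by limma). *SIP2* (AT3G57520), a member of the alpha-galactosidase-like family, read 1009, 1736 and 1071 against 3830, 6141 and 4255. *CAX1* (AT2G38170), which moves calcium into the vacuole, read 1055, 1266 and 1424 against 4499, 3980 and 4655, and its form 3 changed by -1.97. Control arrays were 3.76-fold higher in *SIP2* and 3.53-fold higher in *CAX1*. AT1G11700 changed by -1.69, *HMA2*, a zinc-exporting pump, by -1.68 and *SFP1*, a member of the sugar transporter family, by -1.50.

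*NIA1* (AT1G77760) encodes a nitrate reductase. As one of the brightest repressed transcripts, it read 4397, 4866 and 4623 with picloram and 10279, 13833 and 12824 without (log2 change -1.40, SE 0.17, adjusted p = 0.00124 by limma). Of the 3 asparagine synthetase genes on the sugar starvation list, *ASN1* and *ASN2* were called, in opposite directions, and *ASN3* was not (log2 change 0.34, adjusted p = 0.539 by limma). *ASN2* read 2856, 3492 and 2749 with picloram and 7304, 6597 and 7701 in the control, whereas *ASN1*, known for its induction in darkness, read 7560, 7845 and 6526 with picloram and 3252, 3119 and 3375 in the control. *TPPB*, a trehalose phosphate phosphatase, fell firmly and read 1487, 1833 and 1861 with picloram and 3831, 3644 and 3562 in the control, while its relative *TPPG* was called at 1.24, not firmly. *NdhM*, a subunit of the chloroplast NADH dehydrogenase-like complex, fell by 1.48. The light-harvesting genes gave 0 calls. Of these 21 loci 1 was higher with picloram, against 14705 of all 32627 loci, and the list median was -0.13. With the replicate block 1 of them passed, *Lhca6* (log2 change -0.67), and 4 passed with the block and the 6 wild-type arrays alone.

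B-box (*BBX*) proteins are zinc finger regulators in light signalling. Of 31 loci 4 were repressed and 0 induced, and 5 were higher with picloram. *BBX14* read 552, 645 and 672 with picloram and 1622, 1992 and 2151 in the control (log2 change -1.62). *BBX18*, *BBX27* and *BBX16* were called at -1.08, -0.79 and -0.72 without being firm, so that 2 calls were left without replicate 1 of either treatment, 3 without picloram replicate 2 and 1 with any other array left out. Of 23 genes of the circadian clock 1 was called, *RVE7* (AT1G18330), a MYB factor related to the clock regulator CCA1, at 2048, 2693 and 2744 against 4481, 5477 and 4898. Its second form changed by -0.58. The firm repressed loci with the highest levels included, besides *NIA1* and *ASN2*, AT5G62720 in its form 1 (-1.11), the glucosyltransferase *UGT73B1* (-1.07), the lipid transfer protein gene *LTP* in its form 3 (-1.06) and AT3G63210, which read 2435, 3353 and 3170 against 5616, 5736 and 6403. Forms 1 and 2 of *LTP* (-0.48 and -0.40) and form 2 of AT5G62720 (-0.45) were not called. The remaining loci among the 15 with the largest decrease were AT3G15720, *GLTP2*, AT3G46880, AT1G18810, AT4G32340 and AT2G17710, with changes of -1.49 to -1.29.

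Cell cycle genes (17 loci) and 8 reference genes used to scale quantitative RT-PCR gave 0 calls, and 2 and 0 in the blocked fit to the 6 wild-type arrays. The reference genes had a median change of 0.14, with 7 of 8 higher on picloram arrays and their mean log2 level between 12.0 and 12.1 there, against 11.9 to 12.0 in the control.

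The chip resolves several splice forms for 3602 loci. In 128 of them at least 1 form was called, in 49 all forms and in 79 only some, and no locus had forms called in opposite directions (0 loci). The difference between forms was tested directly for 4491 pairs of a higher-numbered form and the lowest one, and 3 (0.0668%) passed by limma, while 307 had an unadjusted p under 0.05. In AT4G30410 form 2 read 44.7, 46.2 and 39.6 with picloram and 35.8, 45.7 and 32.4 in the control, whereas form 1 read 2173, 3027 and 2768 against 713, 946 and 798. The changes were 0.21 and 1.69, a difference of -1.49 (SE 0.20, adjusted p = 0.0203). Form 2 lay at percentile 2.07 of all levels, near the floor of the chip, where a change is hard to see. *AGP17* gave the pair that was best measured on both sides. Form 2 read 911, 622 and 596 with picloram and 1261, 754 and 709 in the control (log2 change -0.33), whereas form 1 rose by 1.50, a difference of -1.83 (SE 0.25, adjusted p = 0.0203). In *FBA5*, a fructose-bisphosphate aldolase, form 2 changed by 0.06 and form 1 by -0.87 (adjusted p of the difference 0.0424), with form 2 at percentile 14.4.

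The 5 next pairs did not pass. In *CAX1* form 2 changed by -0.71 and form 1 by -1.82 (adjusted p of the difference 0.118). AT2G10940 was the one pair of these 8 in which form 2 was called and form 1 was not, with changes of 1.75 and 0.37 (adjusted p of the difference 0.193). The pairs of *LOG2*, AT2G06000 and *GDPD2* differed by -0.86, -0.60 and -0.97. Form 2 of *LOG2* lay at percentile 0.56 of all levels, near the floor of the chip, and form 1 of AT2G06000 at 8.26. With a replicate block 5 pairs passed. All 3 differences above were lost in a fit to the 6 wild-type arrays alone, where 0 passed, and 0 passed without any one of the 3 control arrays, picloram replicate 2 or picloram replicate 3.

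**Figure D4:**
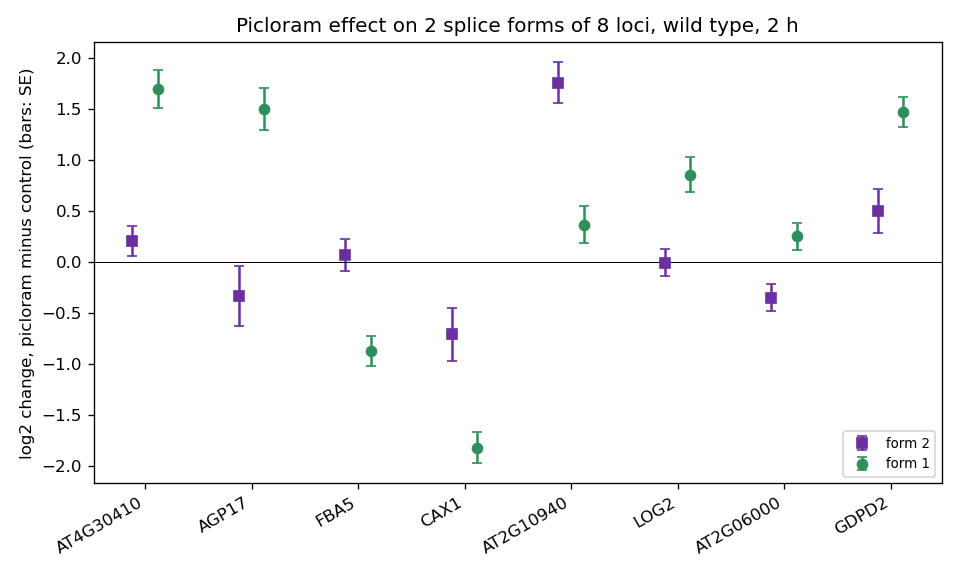
The log2 change (picloram minus control) of form 2 and form 1 with standard errors, for the 8 loci with the smallest adjusted p of the difference. The difference passed the test in the first 3 loci, with *AGP17* at -0.33 in form 2 and 1.50 in form 1.

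In *afb5-5* limma called 0 transcripts after the same treatment, and 384 passed 0.05 before adjustment, so the wild-type calls were set beside the values of the mutant. On its picloram replicate 2, 190 transcripts of protein-coding loci lay more than 1 log2 unit above their group mean. What part the spread of the mutant arrays had in the 0 calls and in the genotype differences below was not tested. The 634 transcripts induced in wild type had a median log2 change of 0.20 in *afb5-5*, and the 170 repressed ones had -0.26. Of these, 557 and 167 changed in the wild-type direction in the mutant, while 13 and 15 kept more than 0.5 times the wild-type change. The median over all transcripts in *afb5-5* was -0.001, and the share of all transcripts that rose or fell there was not counted. Since the transcripts were chosen by their change in wild type, a smaller change in *afb5-5* is partly built into these counts. The test of the difference itself, the interaction of genotype and treatment, called 38 of all 37118 transcripts (0.102%) by limma, from 31 loci, with 1518 at an unadjusted p under 0.05. All 38 were also called in wild type, 36 of them with the higher change in wild type and 2 with the lower one. The count lay between 19 and 35 with any 1 of the 12 arrays left out, and it was 19 without picloram replicate 3 of either genotype. It also fell to 21 or 22 without control replicate 3 or picloram replicate 2 of wild type, and to 22 to 24 without control replicate 2 or 3 or picloram replicate 1 or 2 of *afb5-5*.

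*P1R3* had the largest difference among the named genes. In *afb5-5* it read 68.0, 107 and 77.0 with picloram and 55.1, 77.2 and 65.0 in the control, so the log2 change was 0.34, against 3.35 in wild type (difference 3.01, SE 0.27, adjusted p = 0.00192 by limma). *PRE6* read 2211, 1778 and 2005 with picloram and 1916, 1728 and 1968 in the control of *afb5-5*, a difference of 1.79. *IAA5* and *IAA6* changed by -0.41 and -0.35 in the mutant, opposite in sign to wild type, with differences of 2.63 and 2.62. Of the repressed genes, *CAX1* read 3382, 3849 and 4434 with picloram and 4566, 4953 and 4935 in the control of *afb5-5* (difference -1.50), and *ASN2* changed by -0.03 there (difference -1.22). *GH3.3* had the highest change in the mutant of all the transcripts called in wild type, at 4669, 3220 and 5307 with picloram and 1102, 1892 and 2058 in the control, a log2 change of 1.41, and its difference between the genotypes did not pass (adjusted p = 0.412).

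**Figure D5:**
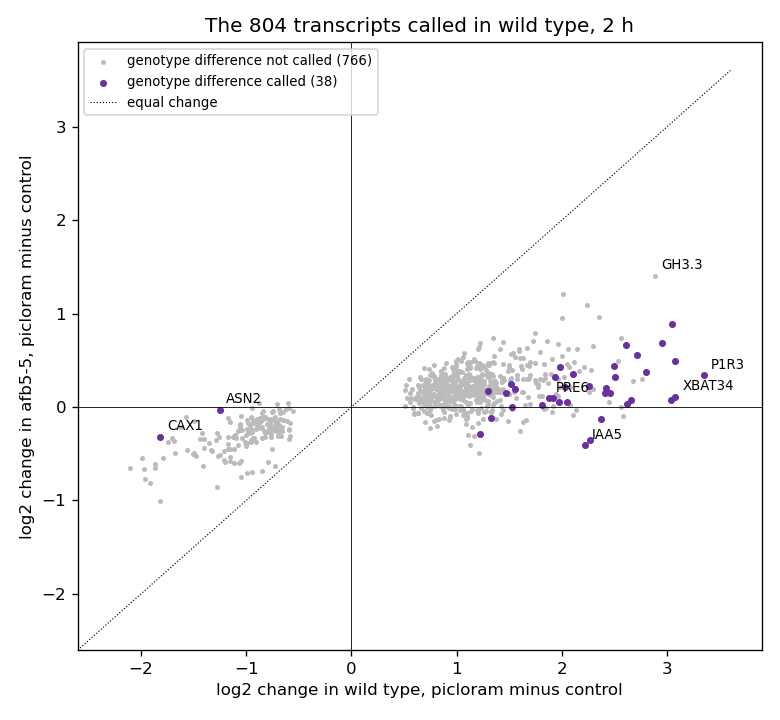
The log2 change in *afb5-5* (vertical axis) against that in wild type (horizontal axis) for the 804 transcripts called in wild type. The 38 transcripts whose change differed between the genotypes are marked, the dotted line stands for equal change, and *GH3.3* lies highest on the *afb5-5* axis at 1.41.

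Experiment “a” repeated the 2 h treatment in wild type with other plants, amplified RNA and another chip. There the dye and the treatment coincide and cannot be told apart. Of the 556 induced loci that are on both chips, 463 (83.3%) were higher with picloram in “a” as well, and of the 152 repressed ones 138 (90.8%) were lower, while over all 30197 shared loci 49.4% were higher and 50.6% lower. The median 2 h change of these loci in “a” was 0.60 and -0.84. At 30 min in “a”, 70.9% of the induced loci were higher and 69.1% of the repressed loci lower, with medians of 0.16 and -0.17, against 48.3% and 51.7% over all loci.

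Named genes differed in how far they moved in “a”. *GA2OX8* changed by 3.95 at 2 h and 1.71 at 30 min there, *GH3.1* by 4.59 and 2.09, and *IAA5* by 2.81 and 3.03. The 30 min change of *GA2OX8* did not pass (adjusted p = 0.214 by limma). In contrast, *XBAT34* and *MDHAR*, which are among the 4 most induced loci of “b”, changed by 0.20 and 0.29 at 2 h in “a” (adjusted p = 0.804 and 0.733 by limma). *WRKY40* changed by -0.04 there (SE 0.40), *XTH16* by -0.14 (SE 1.11), *ACA2* by -0.62 (SE 0.27) and *SIP2* by 0.09 (SE 0.35), and none of these was called. The wide error of *XTH16* leaves its change in “a” poorly known. The other firm *WRKY* genes *WRKY30*, *WRKY53* and *WRKY25* changed by 1.04, 0.36 and 0.26 in “a” and were not called. Nor were *GSTF6* and *GSTF7*, at 0.50 and 0.69, whereas *GSTU12* was called at 1.645. *NIA1* changed by 0.75, opposite in sign to “b”, and was not called in “a” (adjusted p = 0.0874 by limma). Of all the called loci on both chips, 207 of the 556 induced and 61 of the 152 repressed were also called in the same direction at 2 h in “a”. Among the 82 firm loci named by the rule, 34 of the 60 induced and 14 of the 22 repressed ones were, and 0 were called in the opposite direction. The share of all shared loci called at 2 h in “a” was not counted, so these counts have no background beside them. Of the less firm loci named here, *ACS6* and *XTH9* were called in the opposite direction in “a”, at -0.77 and -1.24.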

How the data were processed

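The authors extracted total RNA, had it labelled and hybridized to NimbleGen chips and, per the methods, processed the scans with RMA in the R package oligo. Experiment “b” was annotated on TAIR10 and “a” on TAIR8. The deposited values are linear intensities, 1 per transcript and sample, and were not given with detection flags. Here they were transformed to log2 without filter, floor or pseudocount. Experiment “a” was also quantile normalized, as its medians differ.

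Group means were compared with limma 3.58.1 (lmFit and eBayes, R 4.3.3) in 1 fit to the 12 arrays of “b” without covariates. P-values were adjusted over all transcripts by Benjamini-Hochberg and called under 0.05. Errors beside log2 changes are standard errors of this model. Splice forms were compared as differences within each array. The script was tested on simulated data with independent noise on each array, so deviations shared between arrays were not part of that test. Symbols come from RefSeq TAIR10.1, which matched 31993 of 32627 loci. A locus is described by its lowest-numbered firm form, otherwise by its lowest-numbered called form, and medians of lists use the lowest-numbered form of each locus.

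The deviations of same-numbered wild-type replicates from their group means correlated at 0.60, 0.67 and 0.38. For same-numbered *afb5-5* replicates the values were 0.18, 0.04 and 0.12. Between the genotypes they were 0.69, 0.04 and 0.57 for control arrays and -0.44, -0.70 and 0.205 for picloram arrays. The labels do not say what a number shares, and whether the numbers are a pairing was not tested. The reported fit has no replicate term, and fits with the number as a block are alternatives. The labels call the samples replicates, each of its own pool of hypocotyls. With 3 arrays per group, precision is limited by their number.

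Named are the 15 firm loci with the largest increase and the 15 with the largest decrease, up to 4 firm members of each list, the 6 brightest firm loci in each direction, 8 pairs of forms and list members called less firmly. *IAA1*, *IAA7*, *IAA17*, *IAA29*, *SAUR15*, *SAUR59*, *XTH8*, *XTH33*, *XTH22*, *XTH15* and the members of lists without calls beyond the most changed one were named after their values were seen. The lists and the comparison were chosen with earlier results of these data known. Alternatives were other normalizations, a filter on dim transcripts, a replicate block, the 6 wild-type arrays alone, a variance trend with robust fit, locus means, a threshold of 0.01 and each array left out. Sequences were not analysed here.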

Additional observations from a re-analysis of the deposited data

Results flagged for a closer look

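For 16 named genes the picloram effect differed between wild type and *afb5-5* by the interaction test of limma, with 3 arrays per group. The wild-type change minus the *afb5-5* change on the log2 scale was 3.01 for *P1R3*, 2.97 for *XBAT34*, 2.63 for *IAA5*, 2.62 for *IAA6*, 2.59 for *GA2OX8*, 2.59 for *GH3.1*, 2.58 for AT4G30180 and 2.43 for *ACA2*. It was 2.18 for *CRK11*, 2.15 for *PBP1*, 2.15 for *MDHAR*, 1.79 for *PRE6*, 1.56 for *WRKY40* and 1.44 for *WRKY25*. Among the repressed genes it was -1.22 for *ASN2* and -1.50 for *CAX1*. The smallest adjusted p of these was 0.00192 for *P1R3* and the highest 0.0438 for *ASN2*. The picloram change of *MDHAR* in *afb5-5*, 0.89, was the highest of the 16, and that of *IAA5*, -0.41, the lowest.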

How the results depend on the processing

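The 804 calls became 1295 with the replicate block, 425 in a fit to the 6 wild-type arrays alone, 5961 with both and 348 at an adjusted p under 0.01. The 634 induced transcripts became 365, 2712 and 299 with the 6 arrays alone, with the block and the 6 arrays, and at 0.01, and the 170 repressed ones 442 with the block and 60, 3249 and 49 under these settings. With 1 wild-type array left out the calls numbered 338 to 680, the induced 286 to 583 and the repressed 52 to 125. Induced transcripts numbered 410 if control replicate 1 was dropped, 338 if control replicate 3 was, 336 if picloram replicate 2 was and 286 if picloram replicate 3 was. Repressed ones numbered 78 if control replicate 2 was dropped, 59 if control replicate 3 was, and 97, 100 and 52 if picloram replicate 1, 2 or 3 was. Quantile normalization, centred medians, the filter on dim transcripts, the variance trend and locus means left the 3 counts within 1.5 times. The 38 genotype differences numbered 17 at 0.01 and 19 to 35 with an array left out. The 3 splice form differences became 1 without dim transcripts, 5 with the block, 0 with the 6 arrays alone, 65 with the block and the 6 arrays, 0 at 0.01 and 0 to 2 with an array left out. In *afb5-5* 0 were called under the settings tried there, which were added after the data were seen. The 82 firm loci named by the rule keep their calls with an array left out by how they were chosen. Of them 79 kept the call in the fit to the 6 arrays alone, 75 were left and called without dim transcripts, and 82 were called with the other normalizations, the block and the variance trend. The cause of these shifts was not tested. The directions in experiment “a” were counted on quantile-normalized and on deposited values, within 1.5 times of each other. Signal near the floor of the chip limits what can be seen of dim transcripts.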

Other observations

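Loci called in both experiments at 2 h but in opposite directions numbered 11. *MYB51*, a regulator of indole glucosinolate synthesis, and AT1G60060 were the firm ones, at 1.14 and 1.35 in “b” against -0.92 and -1.51 in “a”. Less firm in “b” were *ACS6* (0.99 in “b”, -0.77 in “a”), *XTH9* (0.74 and -1.24), *SZF1* (0.75 and -0.91), *CAF1a* (0.83 and -0.57), *NUDT21* (1.50 and -0.92), AT2G40095 (1.01 and -1.78), AT4G28780 (1.20 and -1.06), AT2G30020 (0.74 and -1.43) and *MPK19* (-0.59 and 0.84). These loci were listed after their values were seen.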
